A study of Mus musculus with 9 samples.

Results

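Metallothioneins and genes of zinc homeostasis were followed in hearts of C57BL/6 mice by RNA sequencing, in 4 samples from vehicle-treated mice and 5 samples from mice given oxaliplatin at 10 mg/kg. Oxaliplatin is a platinum drug used against cancer, and hearts were taken after 8 weeks of treatment. The labels give no sex or age and do not say whether each sample came from its own animal. The p-values therefore reflect only sample-to-sample spread, part of which may be technical. The gene set was fixed by symbol. It comprised the metallothioneins Mt1, Mt2 and Mt3, the zinc-sensing transcription factor Mtf1, the zinc exporter Slc30a1 and the zinc importers Slc39a1, Slc39a10 and Slc39a14. All 8 were among the 13795 genes of the deposited table and all 8 passed the filter on low values, a mean of at least 10 normalized counts over the 9 samples.

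Metallothioneins are small proteins rich in cysteine that bind zinc and copper and can also bind cadmium and platinum. When free zinc rises in a cell, the transcription factor MTF-1 binds short metal response elements in DNA and raises transcription of Mt1, Mt2 and the exporter ZnT1, the product of Slc30a1. Glucocorticoids and inflammatory cytokines also induce Mt1 and Mt2. Transporters of the ZIP family, encoded by the Slc39a genes, carry zinc into the cytosol, and those of the ZnT family, encoded by the Slc30a genes, carry it out of the cell or into organelles.

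Mt1 and Mt2 rose in oxaliplatin samples, Mt2 more than Mt1, and none of the 8 genes fell. Mt3 had a positive log2 fold change of similar size to that of Mt1 but did not pass, and its 3 highest values came from both groups. Mtf1 had nearly the same mean in both groups. The zinc transporters Slc30a1, Slc39a1, Slc39a10 and Slc39a14 had positive log2 fold changes below those of the metallothioneins, and none of them passed. Thus 2 of the 8 genes passed, both higher, at a Benjamini-Hochberg adjusted p under 0.05 in limma. Of all 13788 genes tested 14.3% passed, 9.23% higher and 5.03% lower.

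The depth behind each sample was estimated at 28.5 to 36.2 M reads (M, 1e6). It rests on a step per read that 73.0% to 75.9% of values matched within 0.02, so it is rough. Markers of cardiomyocytes, the contractile cells of the heart, were detected in every sample. Of 12 cardiomyocyte markers 4 fell, Myh6, Myl2, Atp2a2 and Fabp3, beside 5.03% of all genes, and all 12 had negative log2 fold changes. The summed level of the 12 ran from 1.79 to 2.21 M normalized counts in vehicle samples and from 1.41 to 1.90 M in oxaliplatin samples. In bulk tissue, fewer cells of a type and less RNA per cell cannot be told apart. Vehicle 1, oxaliplatin 2 and oxaliplatin 4 stood apart by a high level of atrial marker genes. Their summed atrial level ran from 391183 to 850382 normalized counts, against 122208 in oxaliplatin 3 and 12682 to 43225 in the other 5 samples. None of the 8 atrial markers passed, and Bmp10 was listed at 0 in vehicle 2, vehicle 4 and oxaliplatin 1.

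Mt1, Mt2 and Mt3 lie in one cluster on chromosome 8 in GRCm38, all on the plus strand, per GENCODE M21. Mt3 spans 94152607 to 94154146, Mt2 spans 94172664 to 94173568 and Mt1 spans 94179082 to 94180327, so 18517 bases lie between Mt3 and Mt2 and 5513 between Mt2 and Mt1. As Mt1 and Mt2 rose together, the 250 bases before their RefSeq start sites (GRCm38.p6, plus strand) are shown. The Mt1 stretch is chr8:94178839-94179088 and the Mt2 stretch is chr8:94172368-94172617. Capitals mark the core of the metal response element, TGCACNC or TGCGCNC on either strand.
Mt1: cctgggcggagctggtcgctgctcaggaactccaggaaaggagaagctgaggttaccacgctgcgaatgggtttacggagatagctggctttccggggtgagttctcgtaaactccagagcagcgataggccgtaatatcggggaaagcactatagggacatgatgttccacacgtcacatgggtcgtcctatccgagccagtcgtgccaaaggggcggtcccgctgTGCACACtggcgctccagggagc
Mt2: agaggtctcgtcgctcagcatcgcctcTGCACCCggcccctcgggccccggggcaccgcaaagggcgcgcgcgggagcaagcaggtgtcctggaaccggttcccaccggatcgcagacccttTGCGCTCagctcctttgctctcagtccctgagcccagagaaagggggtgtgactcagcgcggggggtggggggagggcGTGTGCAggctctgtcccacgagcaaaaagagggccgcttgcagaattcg

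These stretches hold 1 core for Mt1 and 3 for Mt2. In the whole window of 300 bases, which adds 50 bases after the start site, Mt1 had 3 cores and Mt2 had 4, none of them overlapping. Among 32851 RefSeq windows of that length, 25.7% held at least 1 core, 1.31% at least 3 and 0.295% at least 4. Of the other genes, Slc30a1 had 2 cores, Mt3 had 1, and Mtf1, Slc39a1 and both windows of Slc39a10 had 0. RefSeq windows were matched for 7 of the 8 genes, all but Slc39a14. A match to these letters is a description and not a binding site. The counts depend on the start site used. The Mt1 cores lay at -23, 3 and 21 from it, so most of them lay after the stretch shown. That stretch ended at 94179088, just inside the GENCODE gene of Mt1 (from 94179082). The Mt2 window ended at 94172667, about where the GENCODE gene begins (94172664). Bases beyond the windows were not searched, so Mt1 and Mt2 cannot be ranked by their number of cores.

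Mt1 encodes metallothionein-1. In vehicle samples 1 to 4 it had 6276, 7848, 11210.1 and 10055 normalized counts. In oxaliplatin samples 1 to 5 it had 31320, 12394, 16706, 25018 and 27206 normalized counts. All 5 oxaliplatin samples lay above all 4 vehicle samples, with oxaliplatin 2 nearest to them. Means were 8847 ± 2210 and 22529 ± 7778 normalized counts (SD, n = 4 and n = 5). The log2 fold change was 1.30 with a standard error of 0.27 on the log2(normalized count + 1) scale (limma adjusted p = 0.00923), a 2.47-fold rise.

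Mt2, metallothionein-2, had 174, 256, 297 and 398 normalized counts in vehicle samples 1 to 4. In oxaliplatin samples 1 to 5 the values were 1711, 667, 1038, 1852 and 1357 normalized counts. The groups were apart, since the lowest oxaliplatin value, again in sample 2, lay above the highest vehicle value in sample 4. Means were 282 ± 93.1 and 1325 ± 485 normalized counts (SD, n = 4 and n = 5). Mt2 rose by 2.20 on the log2 scale with a standard error of 0.32 (limma adjusted p = 0.00239), a 4.60-fold rise. Groups that did not overlap were thus found for 2 of the 8 genes, both higher, and for 14.9% of all genes tested, 8.99% higher and 5.93% lower.

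**Figure D1:**
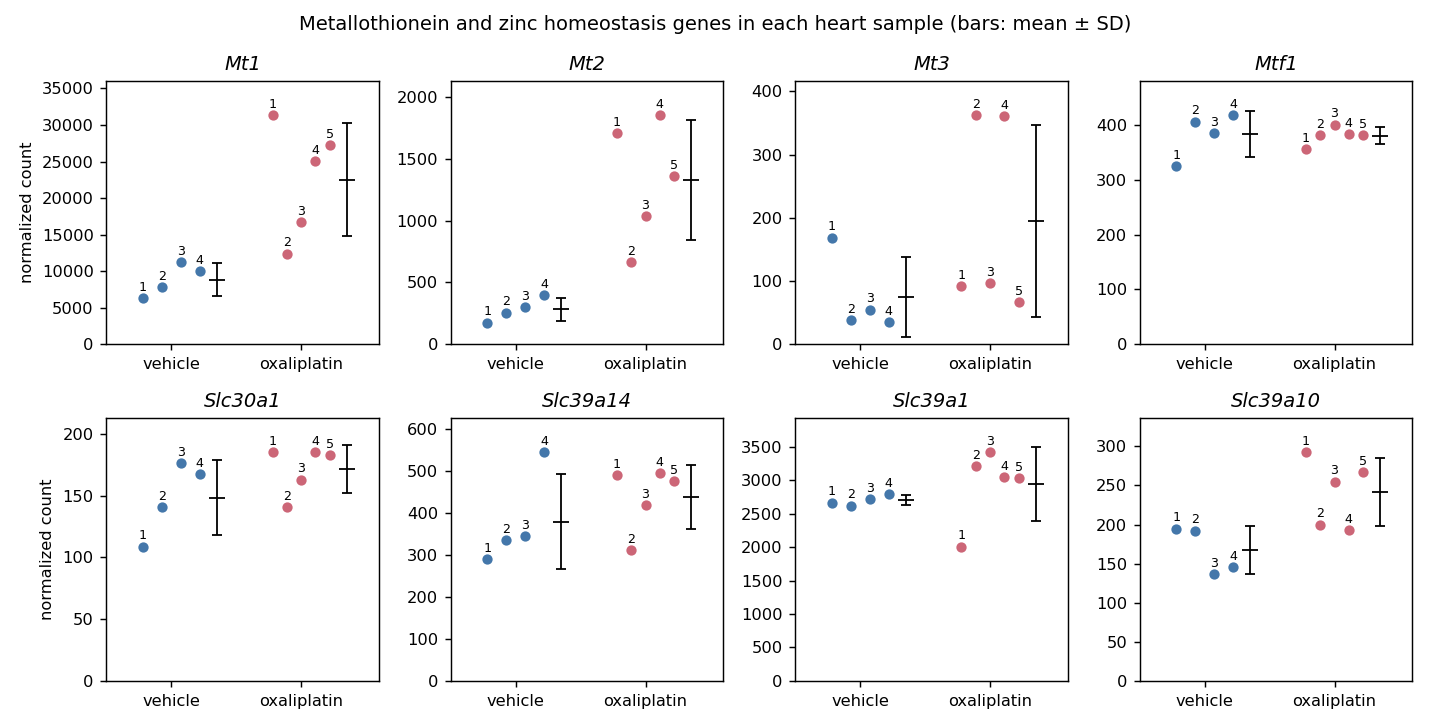
Normalized counts (vertical axes, from 0) of the 8 genes in each sample, numbered by replicate, for vehicle (blue) and oxaliplatin (red), with the mean and SD of each group in black. Mt1 and Mt2 have groups that do not overlap, and Mt3 is highest in oxaliplatin 2, oxaliplatin 4 and vehicle 1.

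The 2 genes also moved together within each group. Across the 9 samples their log2 values had a Pearson correlation of 0.97, and of 0.90 after each group was centred on its own mean. Each pair of values comes from 1 library and shares its depth and scaling. Vehicle 1 was lowest and oxaliplatin 2 was the lowest treated sample for both genes. Mt1 and Mt2 together made up 0.0190% to 0.0347% of all normalized counts in vehicle samples and 0.0432% to 0.0914% in oxaliplatin samples.

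The share of Mt2 against Mt1 differed between groups. The log2 ratio of Mt2 to Mt1 was -5.16, -4.93, -5.23 and -4.65 in vehicle samples 1 to 4. In oxaliplatin samples 1 to 5 it was -4.19, -4.21, -4.01, -3.76 and -4.32. Every oxaliplatin value lay above every vehicle value, and the means were -4.99 ± 0.26 and -4.10 ± 0.22 (SD, n = 4 and n = 5). The difference was 0.90 on the log2 scale, a 1.86-fold change of the ratio, in an exact two-sided permutation test over samples (p = 0.0159, the smallest that 126 assignments can give). The ratio carries the length of each gene, which is the same in all samples, so its change is free of length.

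**Figure D2:**
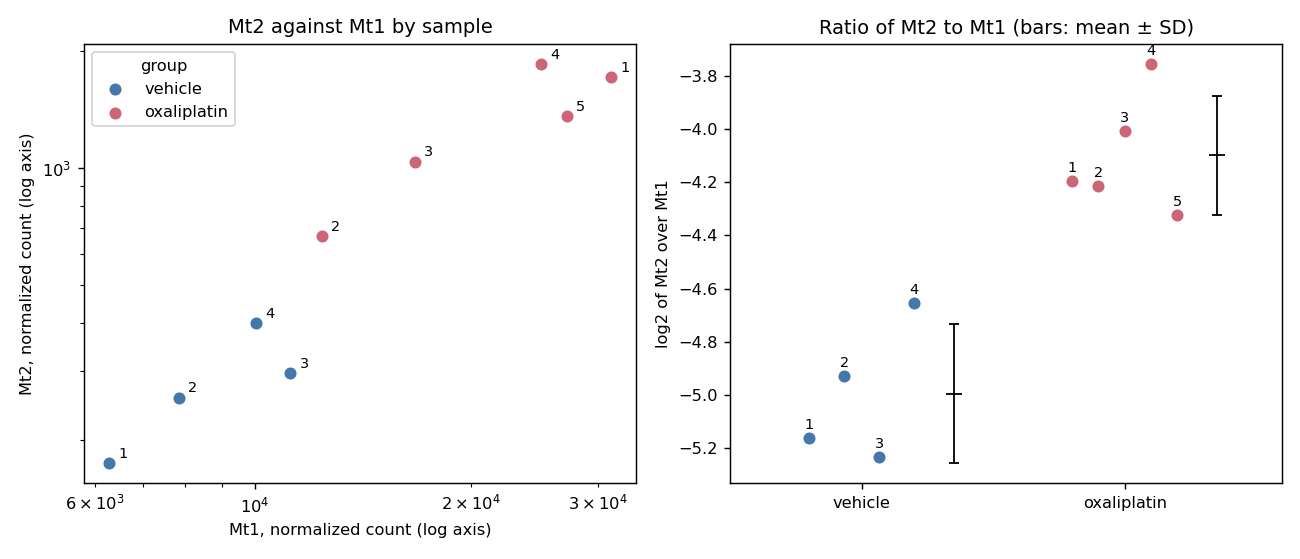
Left, normalized counts of Mt2 against Mt1 in each sample on log axes. Right, the log2 ratio of Mt2 to Mt1 in each sample with the mean and SD of each group in black, where all oxaliplatin samples lie at or above -4.32 and all vehicle samples at or below -4.65.

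Mt2 overlaps the antisense gene Gm45774 over 749 bases, and the strand setting of the counting is not given in the sources used here. Gm45774 had 9.80 to 62.5 normalized counts in vehicle samples and 34.7 to 51.0 in oxaliplatin samples. With the 2 genes summed, a choice made after seeing the data, the log2 fold change was 2.11 (limma adjusted p = 0.00343). The ratio to Mt1 then differed by 0.81 on the log2 scale (exact permutation p = 0.0159). The longest run of identical bases between the Mt1 and Mt2 transcripts was 20 bases.

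Marker genes of other cells also differed between the samples, and their counts stand beside the 9.23% of all genes that were higher and the 5.03% that were lower. Of 10 endothelial markers 3 rose, the adhesion molecules Pecam1 and Esam and the fatty acid binding protein Fabp4. Their summed level ran from 32184 to 40114 normalized counts in vehicle samples and from 40508.5 to 85314 in oxaliplatin samples. As for Mt1, oxaliplatin 1 had the highest endothelial sum and oxaliplatin 2 the lowest treated one. Of 10 fibroblast markers 2 rose, Postn and Mfap5, with a summed level of 74823 to 107844 normalized counts in vehicle samples and 76297 to 171693 in oxaliplatin samples, of which oxaliplatin 1 was lowest. Of 10 macrophage markers Cd68 and Lyve1 rose and Cd163 fell, with a summed level of 4375 to 5987 normalized counts in vehicle samples and 3821 to 8567 in oxaliplatin samples, again with oxaliplatin 1 lowest. Log2 fold changes of the macrophage markers were positive for 5 and negative for 5, with a median of -0.15. None of the markers measured for neutrophils (4), adipocytes (6) and red cells (9) passed. The summed adipocyte level ran from 1772 to 2203 normalized counts in vehicle samples and from 2392 to 9304 in oxaliplatin samples, with oxaliplatin 2 highest. Most of the vehicle sum was Cidea, with means of 1617 and 1816 normalized counts in vehicle and oxaliplatin samples. The mean of centred log2 values of the adipocyte markers overlapped, from -1.22 to -0.18 in vehicle samples and -2.10 to 3.71 in oxaliplatin samples. Plin1 and Lep were not among the genes tested. The part of the cardiomyocyte, endothelial, fibroblast, macrophage and adipocyte markers in the rise of Mt1 and Mt2 was not tested.

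The red cell markers were tested as a covariate. Their score, the mean of centred log2 values, ran from 0.62 to 1.65 in vehicle samples and from -2.88 to -0.99 in oxaliplatin samples other than oxaliplatin 3, which had 1.90. The score thus separated the groups except for oxaliplatin 3. With it in the fit Mt1 did not pass (1.21 ± 0.38 in log2 fold change and standard error, limma adjusted p = 0.0836), and Mt2 was the only gene of the 8 to pass. Without the covariate Mt1 had 1.30 ± 0.27, so mainly its standard error changed. Over all genes 799 were higher and 249 lower with the covariate, against 1272 and 694 without it. Without vehicle 1, oxaliplatin 2 and oxaliplatin 4, the samples of high atrial level, Mt1 rose by 1.34 and Mt2 by 2.10 (limma adjusted p = 0.00274 and 6.53e-05).

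Mt3 encodes a metallothionein best known from brain. Vehicle samples 1 to 4 had 169, 38.0, 54.9 and 35.3 normalized counts. Oxaliplatin samples 1 to 5 had 92.0, 362, 96.4, 361 and 66.4 normalized counts. The groups overlapped, and the 3 highest of all 9 values were those of oxaliplatin 2, oxaliplatin 4 and vehicle 1, the samples of high atrial level. Means were 74.2 ± 63.5 and 196 ± 152 normalized counts (SD, n = 4 and n = 5), with a log2 fold change of 1.33 and a standard error of 0.66 (limma adjusted p = 0.220).

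In the other 6 samples Mt3 had 35.3 to 54.9 normalized counts in 3 vehicle samples and 66.4 to 96.4 in 3 oxaliplatin samples. This subset leaves out the 3 highest values of Mt3. How many of all genes separated in it was not counted. The log2 fold change over these 6 samples was 0.98 with a standard error of 0.31 (limma adjusted p = 0.0642). With the atrial marker score as a covariate in all samples it was 1.05 with a standard error of 0.38 (limma adjusted p = 0.0735). Mt3 thus did not pass in either fit, although its standard error was smaller than over all samples without the covariate. Of 5 measured Schwann and neural markers none passed, and their summed level ran from 457 to 629 normalized counts in vehicle samples and from 166 to 708 in oxaliplatin samples.

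**Figure D3:**
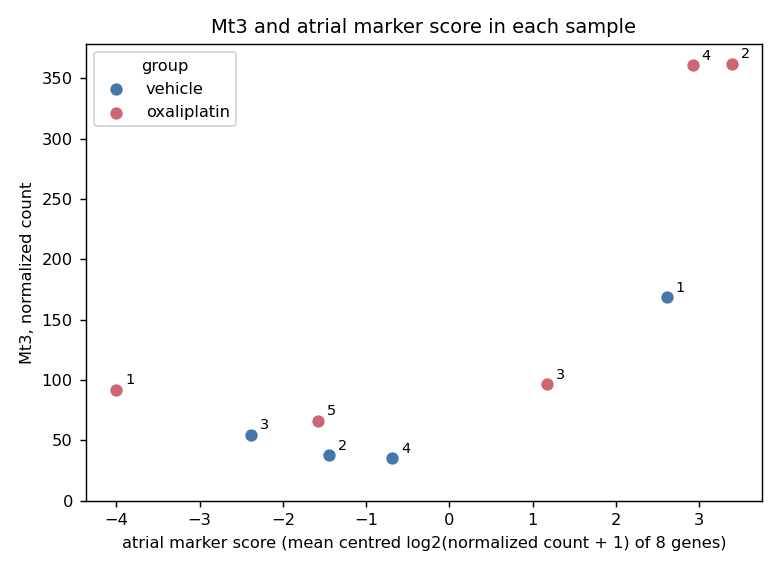
Mt3 in normalized counts (vertical axis, from 0) against the atrial marker score (horizontal axis, the mean of centred log2 values of 8 genes) in each sample, numbered by replicate. Vehicle 1, oxaliplatin 2 and oxaliplatin 4 lie to the right and have 168.5 or more normalized counts of Mt3, against at most 96.4 in the other samples.

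Mtf1, the gene of the zinc sensor itself, lies on chromosome 4 from 124802104 to 124849800. It had 325, 407, 386 and 418 normalized counts in vehicle samples 1 to 4. It had 356, 383, 401, 384 and 382 normalized counts in oxaliplatin samples 1 to 5. The oxaliplatin values all lay within the range of the vehicle values. Means were 384 ± 41.3 and 381 ± 16.1 normalized counts (SD, n = 4 and n = 5), with a log2 fold change of -0.0046 and a standard error of 0.12 (limma adjusted p = 0.987). Its end overlaps the gene 1110065P20Rik on the other strand over 721 bases.

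Slc30a1 encodes ZnT1, which exports zinc across the plasma membrane and is induced by MTF-1. The gene lies on chromosome 1 from 191906767 to 191913247. It had 109, 141, 176 and 167 normalized counts in vehicle samples 1 to 4 and 185, 141, 163, 185 and 183 in oxaliplatin samples 1 to 5. The groups overlapped, with vehicle 1 lowest and 3 oxaliplatin samples above all vehicle samples. The log2 fold change was 0.22 with a standard error of 0.18 (limma adjusted p = 0.437). The antisense gene 1700034H15Rik overlaps it over 761 bases.

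Among the importers, Slc39a10, or ZIP10, is repressed by MTF-1 when zinc is high. It lies on chromosome 1 from 46807544 to 46892852 and had 195, 192, 137 and 145 normalized counts in vehicle samples 1 to 4. In oxaliplatin samples 1 to 5 it had 293, 199.9, 255, 193 and 267 normalized counts. The groups overlapped only by oxaliplatin 4, which lay just below vehicle 1. The log2 fold change was 0.53 with a standard error of 0.18 and did not pass (limma adjusted p = 0.0670; unadjusted exact permutation p = 0.0317). Without the 3 samples of high atrial level it was 0.79 (limma adjusted p = 0.0263), with the atrial score as a covariate 0.56 (0.0401) and without oxaliplatin 2 it was 0.59 (0.0454). Scaling to the total without mitochondrially encoded and haemoglobin genes gave 0.60 (0.0464). These 4 were the only passes among 21 alternative fits. In the other 17 it did not pass, with a limma adjusted p of up to 0.192. Slc39a10 overlaps the genes Gm28151 and Gm37393 on the same strand.

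Slc39a14, or ZIP14, imports zinc, iron and manganese and is induced by interleukin-6. It lies on chromosome 14 from 70303469 to 70351425. It had 290.4, 336, 345 and 546 normalized counts in vehicle samples 1 to 4 and 489.9, 313, 420, 495 and 477 in oxaliplatin samples 1 to 5. Vehicle 4 had the highest value of all 9 samples, and the other vehicle samples were at the low end with oxaliplatin 2. The log2 fold change was 0.23 with a standard error of 0.19 (limma adjusted p = 0.458).

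Slc39a1, or ZIP1, is a widely expressed importer of the plasma membrane and lies on chromosome 3 from 90248172 to 90253612. Vehicle samples 1 to 4 were close together with 2664, 2620, 2717 and 2793 normalized counts. Oxaliplatin samples 1 to 5 had 2006, 3214, 3421, 3041 and 3033 normalized counts. Of the oxaliplatin samples 4 lay above all vehicle samples and oxaliplatin 1 lay below all of them. The log2 fold change was 0.10 with a standard error of 0.14 (limma adjusted p = 0.679).

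Levels can be compared between genes per kilobase of exons annotated in GENCODE M21. Mt1 had the highest level of the 8 genes in vehicle samples, 7101 ± 1774 normalized counts per kilobase (SD, n = 4), and ranked 252 of 13589 genes with a length. Slc39a1 followed with 1141 ± 31.5 normalized counts per kilobase and Mt2 with 479 ± 158. Below them were Mt3 (69.6 ± 59.6), Mtf1 (43.1 ± 4.64), Slc39a14 (36.0 ± 10.7), Slc30a1 (28.3 ± 5.80) and Slc39a10 (27.4 ± 5.02), all in normalized counts per kilobase. These 5 were not apart from their neighbours in that order beyond their spread.

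In oxaliplatin samples Mt1 ranked 109 of 13589 with 18081 ± 6242 normalized counts per kilobase (SD, n = 5). Mt2 came next with 2253 ± 825 normalized counts per kilobase and stood at rank 600, against rank 2086 in vehicle samples. Slc39a1 followed with 1245 ± 231 normalized counts per kilobase. By sample, Mt2 lay above Slc39a1 per kilobase in oxaliplatin 1, 3, 4 and 5 and below it in oxaliplatin 2. The annotated exons of Mt1 cover the whole gene, so its level per kilobase rests on a length of 1246 bases.

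The wider family of zinc transporters was counted as well. Of 24 genes of the ZnT and ZIP families 16 were measured, of which 2 rose, 1 fell and 13 did not pass, beside 9.23% higher and 5.03% lower among all genes tested. Counts this small are near that background. Their median log2 fold change was 0.21, against -0.021 over all genes tested. Slc30a7, or ZnT7, which carries zinc into the Golgi apparatus, rose from 200.4 ± 21.1 to 309 ± 44.6 normalized counts (0.62 ± 0.15 as log2 fold change ± standard error, with a limma adjusted p = 0.0148). Slc39a6, or ZIP6, an importer that pairs with ZIP10, rose from 75.0 ± 11.4 to 122 ± 23.5 normalized counts (0.69 ± 0.20, with a limma adjusted p = 0.0349). Slc30a9, or ZnT9, a zinc transporter of mitochondria, fell from 875 ± 185 to 619 ± 93.5 normalized counts (-0.49 ± 0.15, with a limma adjusted p = 0.0469). Groups did not overlap for 3 of the 16 as higher and 1 as lower, beside 8.99% higher and 5.93% lower among all genes tested. They were these 3 genes and Slc39a9, which did not pass (limma adjusted p = 0.251).

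The calls of transporters that passed changed when single samples were left out, and so did the calls over all genes. None of the 16 passed as higher without vehicle 2, where 864 of all genes did, against 1272 with all samples. There Slc30a7 had a log2 fold change of 0.54 (limma adjusted p = 0.0543) and Slc39a6 of 0.62 (0.0994). Of the 16, 1 passed as higher without vehicle 4, oxaliplatin 3 or oxaliplatin 4, where 1115, 936 and 904 of all genes did. The fall of Slc30a9 passed when oxaliplatin 2 was left out, and with any other sample left out it did not. Its log2 fold change ran from -0.56 to -0.35 over these fits. Slc39a8, or ZIP8, named after its values were seen, had 65.7, 19.0, 14.0 and 7.06 normalized counts in vehicle samples and 26.3, 81.0, 60.4, 109 and 85.2 in oxaliplatin samples. It had the highest log2 fold change of the transporters, 1.73 with a standard error of 0.57, and did not pass (limma adjusted p = 0.0608).

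**Figure D4:**
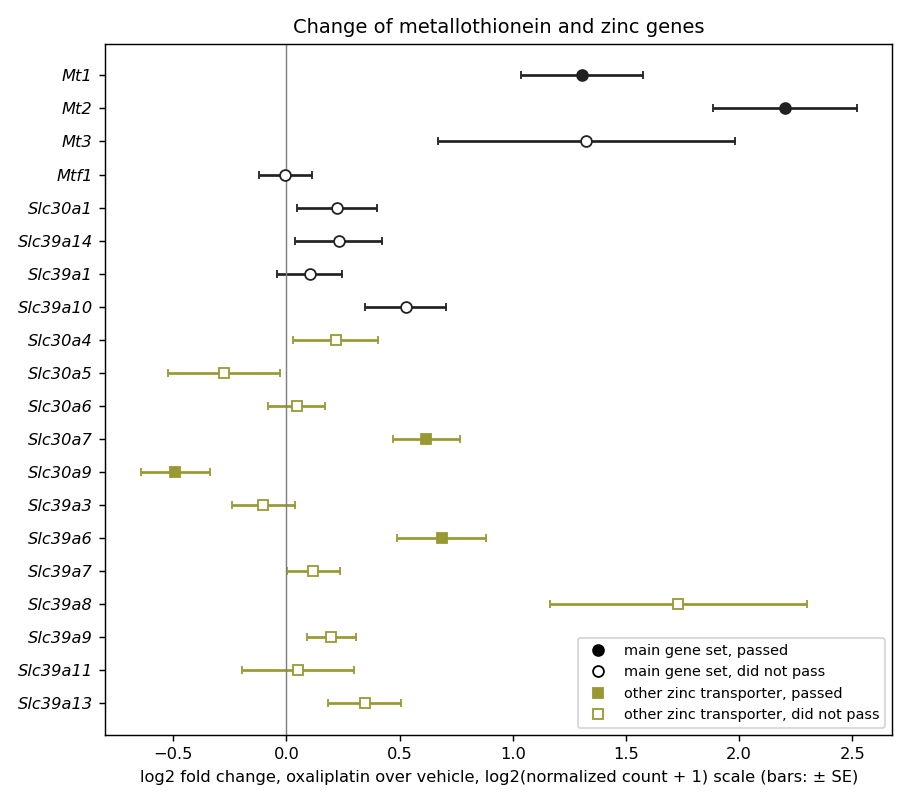
Log2 fold change of oxaliplatin against vehicle with its standard error for the metallothioneins, Mtf1 and the measured zinc transporters, on the log2(normalized count + 1) scale. Mt2 at 2.20 and Mt1 at 1.30 passed, whereas Slc39a8 at 1.73 and Mt3 at 1.33 had wide errors and did not.

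Genes known to respond to MTF-1 were counted next, with Mt1, Mt2, Slc30a1 and Slc39a10 among them. Since Slc39a10 is repressed by MTF-1, the list mixes directions of response. Of 9 measured genes 4 rose and 0 fell, beside 9.23% and 5.03% of all genes, with a median log2 fold change of 0.53. Apart from the 4 genes already described above, 2 of 5 rose and 0 fell, with a median log2 fold change of 0.37. Csrp1, a LIM domain protein, rose from 1047 ± 141 to 2028 ± 271 normalized counts (0.95 ± 0.13 in log2 fold change and standard error, limma adjusted p = 9.37e-04), with no overlap of the groups. Ndrg1, which is also induced by hypoxia, rose from 622 ± 114 to 953 ± 132 normalized counts (0.62 ± 0.14, limma adjusted p = 0.0118), and its groups overlapped by vehicle 4 and oxaliplatin 2.

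Other inducers of metallothioneins were covered by 3 lists. Of 12 glucocorticoid response genes 4 rose and 0 fell (9.23% and 5.03% of all genes), with a median log2 fold change of 0.63. Fkbp5, a chaperone of the glucocorticoid receptor, had 105, 191, 141 and 332 normalized counts in vehicle samples 1 to 4. It had 724, 445, 494, 872 and 559 in oxaliplatin samples 1 to 5, above all vehicle samples (log2 fold change 1.77, limma adjusted p = 0.00465). Sult1a1, Map3k6 and Tsc22d3 rose by 1.12, 1.25 and 0.61 on the log2 scale. The other 8 genes of the list did not pass. Over the 12, log2 fold changes were positive for 9 and negative for 3, down to -0.84. When vehicle 3 was left out, 2 of the 12 glucocorticoid response genes rose, beside 789 of all genes, against 1272 with all samples.

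Of 15 STAT3 and acute phase genes 6 rose and 0 fell (9.23% and 5.03% of all genes), with a median log2 fold change of 0.52. Serpina3n, a secreted protease inhibitor, rose from 164 ± 42.0 to 1389 ± 1190 normalized counts (log2 fold change 2.79, limma adjusted p = 0.00762), with 3473 in oxaliplatin 4. Stat3 itself, the receptor gene Osmr and the metalloproteinase inhibitor Timp1 rose by 0.55, 0.73 and 1.77 on the log2 scale. The list did not move as one, since 9 of the 15 did not pass. Log2 fold changes were positive for 11 and negative for 4, down to -0.93. When vehicle 3 was left out, 2 of the 15 STAT3 and acute phase genes rose, beside 789 of all genes, against 1272 with all samples. Of 13 targets of NRF2, a regulator of the response to oxidants, 1 rose and 0 fell, with a median log2 fold change of 0.30. That count is near the 9.23% of all genes that were higher. The target that rose was the heme oxygenase Hmox1, which rose from 271 ± 36.9 to 929 ± 313 normalized counts (log2 fold change 1.72, limma adjusted p = 8.83e-04). Leaving out oxaliplatin 2 gave 3 targets that rose, and leaving out vehicle 1 or oxaliplatin 3 gave 2. Over all genes these fits gave 1505, 1038 and 936 that were higher.

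The genes whose pattern was most like the mean of Mt1 and Mt2 over the 9 samples were found by Pearson correlation of log2 values, as a description. They were Plaur (0.99), Cdkn1a (0.99), Cda (0.98), Fez1 (0.98), Uchl1 (0.98) and Tubb2a (0.97). Cdkn1a, the p53 target that encodes the cell cycle inhibitor p21, had 299 to 854 normalized counts in vehicle samples and 1790 to 7913 in oxaliplatin samples. Its lowest treated sample was oxaliplatin 2 and its highest oxaliplatin 1, as for Mt1. With each group centred on its own mean, the 6 most alike were Lrrc8a (0.99), Amotl2 (0.98), Cish (0.97), Hrct1 (0.96), Ppip5k1 (0.96) and Cda (0.96). Cda was thus in both sets. All values of a sample share its library and its scaling.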

How the data were processed

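RNA from mouse heart was sequenced in 9 samples, 4 vehicle and 5 oxaliplatin. The authors deposited 1 table of normalized counts per gene (a signal, not whole reads). The submitters' processing notes name STAR 2.5.1a, Partek and DESeq2 without their roles; for the build, the annotation and strandedness, nothing is given in the sources used here. Because only 73.0% to 75.9% of values lay within 0.02 of a whole read, reads per gene were not recovered. The depth given above is an estimate from the same step. Genes with a mean of at least 10 were compared on log2(normalized count + 1) in limma (version 3.58.1; R 4.3.3) using trended, robust moderation, no covariates, and Benjamini-Hochberg adjustment over 13788 genes. The code was tested on simulated data. Exact permutation tests, two-sided, served single values.

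Coordinates and exon lengths came from GENCODE M21 (GRCm38), matched by symbol. Promoter windows came from RefSeq. The genes, lists and tests were chosen with earlier results of these data known. Named genes were the 8 genes, at most 4 passing genes per list by smallest p (all the rest only counted), and the 6 most correlated genes in each of 2 ways. Marker genes were named where they passed. Alternatives changed the pseudocount, filter, scaling, moderation, weights, block, covariates and samples. Adding Gm45774 to Mt2 was chosen after the data were seen.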

Additional observations from a re-analysis of the deposited data

Results flagged for a closer look

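Within groups of 4 or 5 samples, 7 of 70 groups tested had 1 sample far from the others for a named gene, where chance gives about 1 in 20. Among the metallothionein and zinc genes, Mt3 in vehicle 1 had 168.5 normalized counts, and Slc39a1 in oxaliplatin 1 had 2006, below all other samples. Slc30a9 in vehicle 4 had 1151 normalized counts, Ndrg1 in vehicle 4 had 792 and Map3k6 in vehicle 4 had 187. In oxaliplatin 4, Map3k6 had 434 normalized counts and Serpina3n had 3473.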

How the results depend on the processing

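Mt2 passed under all alternatives run and Mt1 under all but the red cell covariate, which left 1 of the 8 genes passing. Leaving out 1 sample at a time gave 2 to 3 of the 8 higher and 0 lower. Mtf1, near 0, turned positive with total scaling (0.069), array weights (0.029), the red cell covariate (0.024) and the atrial covariate (7.46e-04), and ran from -0.082 to 0.038 leaving out samples. Over all genes, array weights gave 1975 higher and 1566 lower, the red cell covariate 799 and 249, total scaling 411 lower, the atrial covariate 1047 lower, and leaving out samples 789 to 1505 higher and 321 to 873 lower. The higher share of calls was 64.7%, against 54.4% with quantile and 76.7% with total scaling. Zinc transporters higher were 4 with array weights, 1 with the red cell covariate, 4 with the atrial covariate and 0 to 3 leaving out samples; lower were 0 with total scaling, without trend and robust, with the replicate block and with the red cell covariate, and 0 to 1 leaving out samples. MTF-1 responsive genes higher were 2 with the red cell covariate. Glucocorticoid genes higher were 2 with the replicate block and 2 with the red cell covariate, and 2 to 5 leaving out samples; STAT3 genes higher were 3 with the red cell covariate and 2 to 6 leaving out samples. In both lists 1 gene was lower without the 3 samples of high atrial level, and 0 to 1 leaving out samples. NRF2 targets higher were 2 with quantile scaling, 2 with total scaling, 4 with array weights, 2 with the atrial covariate and 1 to 3 leaving out samples. The cause was not tested. Same-numbered samples had correlations of -0.27, -0.06, -0.09 and 0.25, within the range of -0.45 to 0.42 over all vehicle and oxaliplatin pairs. These values cannot settle whether the numbers pair samples, and the labels do not say. With the replicate block the Mt2 to Mt1 difference was 0.95 (exact sign-flip p = 0.125, the smallest that 4 pairs allow).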
